A study of Mus musculus with 6 samples.

Results

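The Zfp genes are the mouse zinc finger genes whose symbol is Zfp followed by a number, and they were examined in endothelial cells sorted from the spleens of Stab1 knockout and wild-type mice. Members came from the rows of the authors' deposited expression table with such a symbol, with or without a final letter, and they were chosen by level, as those with at least 1 RPKM (reads per kilobase of transcript, scaled to library depth) in 3 or more of the 6 libraries. Of 361 Zfp rows in the table, 268 met this rule and 93 did not. The level that chose the members is the filter that was put on every gene, and 11035 genes passed it. A gene passes this filter more easily through the group where it is higher, so counts and medians over the members are given as descriptions. The 3 members nearest the limit were Zfp385c, Zfp182 and Zfp932, whose level in the library that decides the rule (the lowest of their top 3) was 1.01, 1.03 and 1.04 RPKM, and the nearest genes outside were Zfp738, Zfp112 and Zfp941 at 0.952, 0.942 and 0.936 RPKM. Among the genes left out, 13 were listed at 0 in all 6 libraries and 80 were above 0 somewhere.

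A C2H2 zinc finger is a short fold in which a pair of cysteines and a pair of histidines hold a zinc ion, and fingers in a row read successive stretches of DNA. Many Zfp proteins also carry a KRAB box at their start, a domain that recruits the corepressor Trim28 and, through it, enzymes that place repressive chromatin marks, and these proteins are best known for silencing retroelements and imprinted loci. KRAB zinc finger genes arose by repeated local duplication and lie in clusters of related copies, while Zfp is a naming prefix that also covers unrelated proteins, such as the RNA-binding protein tristetraprolin, encoded by Zfp36.

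The groups were 3 libraries from Stab1-/- mice (KO 2, KO 3 and KO 4) and 3 libraries from wild-type mice (WT 1, WT 3 and WT 4), all on the C57BL/6 strain. Cells were CD31+ CD45- and are labelled blood endothelial cells. Stab1 encodes stabilin-1, a scavenger receptor of sinusoidal endothelium, and the allele, the age of the mice and whether each library came from its own animal are not given in the sources used here. The p-values therefore measure the spread between these libraries, which may be technical.

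Depth was 40274424 to 51498038 recovered reads per library. Stab1 itself had 2.32, 2.62 and 2.49 RPKM in the knockout libraries, against 21.6, 43.6 and 31.4 RPKM in the wild-type libraries, a log2 fold change of -3.40 ± 0.22 (SE; limma adjusted p = 7.15e-05). The endothelial marker Pecam1 had 329 to 360 RPKM in the knockout libraries and 273 to 326 RPKM in the wild-type libraries, while the pan-leukocyte gene Ptprc stayed at or under 0.110 RPKM in all 6. The summed level of 12 megakaryocyte and platelet markers was 64.6 to 83.1 RPKM in the knockout libraries and 97.2 to 275 RPKM in the wild-type libraries. Pf4, a platelet chemokine and the 1 of those 12 that was called, had 15.4 to 19.2 RPKM in the knockout libraries and 36.3 to 88.4 RPKM in the wild-type libraries. Summed markers of macrophages and monocytes were 242 to 341 RPKM in the knockout libraries and 385 to 438 RPKM in the wild-type libraries. Within that list Fcer1g had 55.5 to 115 RPKM in the knockout libraries and 215 to 232 RPKM in the wild-type libraries. Its means were 78.9 RPKM in the knockout and 224 RPKM in wild type. Of the 5 tested there, Vcam1 alone went the other way, with means of 187 RPKM in the knockout and 173 RPKM in wild type. Among those too low to test, C1qa, C1qb and C1qc had means of 0.383, 0.738 and 0.660 RPKM in the knockout. In wild type these were 0.203, 0.565 and 0.465 RPKM. Csf1r, Cd68 and Cd5l had means of 0.0417, 0.739 and 0.209 RPKM in the knockout and 0.0426, 0.735 and 0.238 RPKM in wild type. Summed markers of reticular cells and fibroblasts were 68.97 to 103 RPKM in the knockout libraries and 108 to 287 RPKM in the wild-type libraries. Cxcl13 on that list had 14.2 to 19.1 RPKM in the knockout libraries and 43.7 to 76.0 RPKM in the wild-type libraries. Pdgfrb, Col3a1 and Ccl19 on it had positive log2 fold changes of 0.37, 0.11 and 0.18, and its other tested genes had negative ones. Fcer1g, Cxcl13 and the pericyte gene Rgs5, 1 called gene from each of the macrophage, reticular and pericyte lists, had log2 fold changes of -1.57, -1.91 and -1.34. The median log2 fold changes of those lists were -0.51 (5 tested), -0.26 (8 tested) and -0.06 (8 tested). Of 14 tested endothelial markers Clec4g was called, at -1.25, and their median was 0.13. The part of these markers in the Zfp results was not tested. In sorted bulk cells, fewer cells of a type and less RNA per cell cannot be told apart.

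Most Zfp genes were weakly expressed. The mean level over the 6 libraries had quartiles of 1.96, 3.76 and 7.80 RPKM among the 268 members, against a median of 11.98 RPKM for all genes tested. It was under 5 RPKM for 169 members and 10 RPKM or more for 50. Depth was nevertheless enough to count them: the library with the fewest reads for a member held 27 reads at the lowest and 392 reads for the median member. All 6 libraries reached 1 RPKM for 208 members. For 7 members (Zfp708, Zfp712, Zfp273, Zfp955a, Zfp932, Zfp182 and Zfp780b) only wild-type libraries reached it, and for Zfp369 only knockout libraries did.

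In the knockout, 18 Zfp genes fell and 2 rose at an adjusted p under 0.05 (limma on log2(RPKM + 0.5), Benjamini-Hochberg adjustment over 11035 genes). Those 20 were 7.46% of the members, while 1.94% of all genes tested were called. Lower calls were 6.72% of the members and 1.27% of all genes tested. Higher calls were 0.746% of the members and 0.671% of all genes tested. The median log2 fold change was -0.15 over the members and 0.03 over all genes tested, and 64.9% of members against 45.7% of all genes had a negative one. All 3 knockout libraries lay below all 3 wild-type libraries for 79 members (29.5%), against 9.57% of all genes, and above them for 15 members (5.60%), against 10.7% of all genes. The filter fixed this separation for the 7 members that passed it through wild-type libraries only, and for Zfp369. At an unadjusted p under 0.05, 73 members were lower and 6 were higher, where 9.57% of all genes were lower and 6.17% higher.

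The 18 genes that fell had log2 fold changes of -2.45 to -0.88, with adjusted p of 0.000367 to 0.0482, and 14 of them were at least 2-fold lower on the log2(RPKM + 0.5) scale. Their means were 0.842 to 4.54 RPKM in the knockout and 2.49 to 11.3 RPKM in wild type. The groups did not overlap for any of the 20 called genes, which the filter had fixed for Zfp369. The count of lower calls was 6 without KO 2, 4 without KO 3, 38 without KO 4, 6 without WT 1, 7 without WT 3 and 4 without WT 4. All 18 log2 fold changes stayed negative each time, which had to be so because the groups do not overlap. Zfp367, Zfp52, Zfp51 and Zfp369 were the 4 that kept their call in every alternative that tested them. In the authors' deposited table of 13742 genes, 19 of the 268 members have an adjusted p under 0.05, 17 of them lower in the knockout, and all 19 are among the 20 called here. Zfp944 was called here alone.

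**Figure D1:**
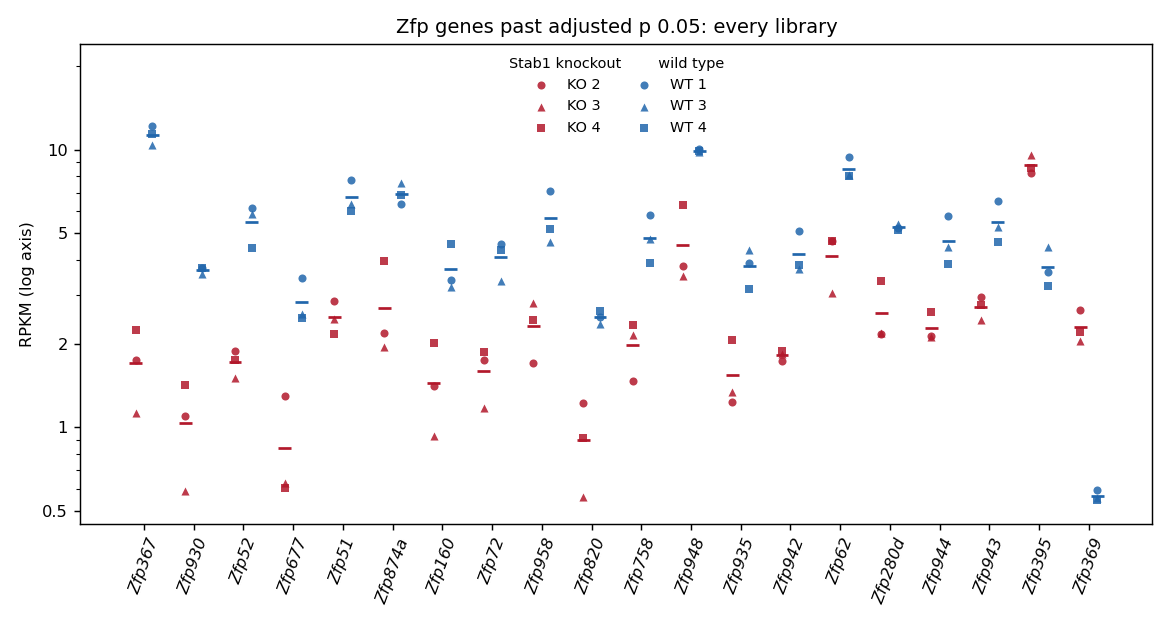
RPKM on a log axis of the 20 Zfp genes called at an adjusted p under 0.05, in order of log2 fold change, with knockout libraries left and wild-type libraries right of each gene's mark, 1 point per library and a bar at each group mean. The knockout points lie under all wild-type points for the first 18 genes and over them for Zfp395 and Zfp369.

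Zfp367 showed the largest fall of any Zfp gene tested. It encodes a protein with 2 finger matches and no KRAB box, described in human erythroleukaemia cells as an activator of a globin promoter, and lies at chr13:64133022-64153199 (GRCm38, RefSeq). It had 1.75, 1.13 and 2.24 RPKM in the knockout libraries, against 12.1, 10.4 and 11.3 RPKM in the wild-type libraries. Every wild-type library was thus far above every knockout library, with little spread within wild type. The means were 1.71 ± 0.557 RPKM in the knockout and 11.3 ± 0.854 RPKM in wild type (SD, n = 3 each), a log2 fold change of -2.45 ± 0.21 (SE; limma adjusted p = 0.000367). Its transcript has a GC content of 44.6%, the highest among the 18. It shares no exact 50-base window with another gene, where gene models overlapping its own were left out. With the GC and length trend of each library removed, its log2 fold change was -2.34 (limma adjusted p = 0.000176).

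The 2 genes that rose were Zfp369 and Zfp395. Zfp369, also called Nrif2, encodes a KRAB protein related to the neurotrophin receptor interacting factor Zfp110, and lies at chr13:65277228-65304222. It had 2.64, 2.04 and 2.21 RPKM in the knockout libraries, against 0.593, 0.558 and 0.549 RPKM in the wild-type libraries. Wild-type libraries were closely alike and all below 1 RPKM, so the gene passed the filter through the knockout libraries only. The log2 fold change was 1.39 ± 0.18 (SE; limma adjusted p = 0.00614), and 1.69 with the GC and length trend removed. Its relative Zfp110 had a log2 fold change of 0.14 ± 0.14 and was not called (limma adjusted p = 0.628).

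Zfp395, whose human counterpart is induced by hypoxia, has 1 finger match and no KRAB box and lies at chr14:65358676-65398930. It had 8.22, 9.58 and 8.62 RPKM in the knockout libraries, against 3.63, 4.46 and 3.21 RPKM in the wild-type libraries. The groups were well apart, with a log2 fold change of 1.13 ± 0.16 (SE; limma adjusted p = 0.0095). Its adjusted p was 0.0620 without KO 3, and it also lost its call with no filter on low values.

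Of the 18 genes that fell, 10 lie in a single cluster on proximal chromosome 17. That cluster spans chr17:21008941-23599755 and holds 17 members, all with a KRAB box. Clusters were defined as at least 5 members with gaps under 1 Mb, and 14 of them held 124 members. In the chromosome 17 cluster 15 of 17 members had a negative log2 fold change, with a median of -0.91, and 13 had all knockout libraries below all wild-type libraries. Over all genes tested, 1.27% were called lower, and 9.57% had all knockout libraries below all wild-type libraries. Among all 54 members under 40% GC, 39 (72.2%) had such a separation. For Zfp708, Zfp712, Zfp273, Zfp955a and Zfp932 among these the filter had fixed it. The called members were Zfp160, Zfp677, Zfp51, Zfp52, Zfp948, Zfp820, Zfp942, Zfp943, Zfp944 and Zfp758. Zfp213 and Zfp13, at the distal end, were the members with positive log2 fold changes, 0.27 and 0.08, and were not called. Their transcripts have GC contents of 59.5% and 59.1%, while 13 of the 17 cluster members are under 40%. The 4 tested genes of the same span without a Zfp symbol (2210404O09Rik, 3110052M02Rik, Gm10509 and Gm16386) had a median log2 fold change of -0.53, and 0 of them were called.

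**Figure D2:**
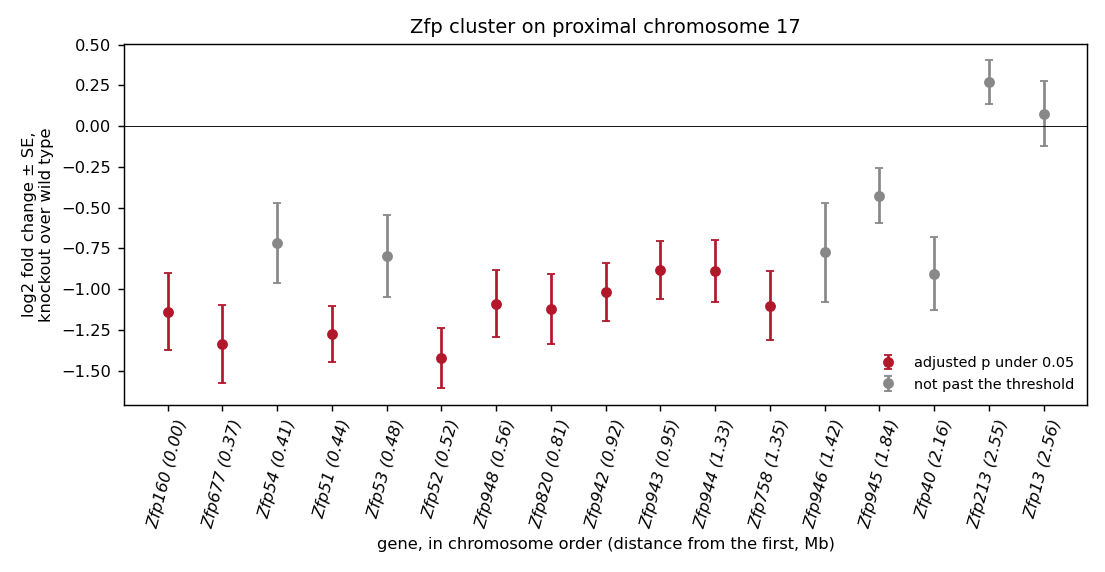
Log2 fold change, knockout over wild type, with its SE for the 17 Zfp genes of the proximal chromosome 17 cluster in chromosome order, with the distance in Mb from the first gene in parentheses. Red points passed an adjusted p of 0.05. Values lie between -1.42 for Zfp52 and -0.43 for Zfp945 until the distal Zfp213 and Zfp13, which are above 0.

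Within this cluster Zfp52 and Zfp51 had the smallest adjusted p. Zfp52, with 14 finger matches, had 1.89, 1.51 and 1.74 RPKM in the knockout libraries, against 6.15, 5.85 and 4.42 RPKM in the wild-type libraries. Its log2 fold change was -1.42 ± 0.18 (SE; limma adjusted p = 0.00526). Zfp51, with 19 finger matches, had 2.86, 2.45 and 2.17 RPKM in the knockout libraries, against 7.80, 6.39 and 6.03 RPKM in the wild-type libraries. For both genes the knockout libraries were close together and the lowest wild-type library was more than 2 RPKM above them. The log2 fold change of Zfp51 was -1.28 ± 0.17 (SE; limma adjusted p = 0.00726).

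Zfp948 was the most expressed gene of the cluster that fell, with 3.82, 3.49 and 6.30 RPKM in the knockout libraries, against 10.03, 9.79 and 9.90 RPKM in the wild-type libraries. KO 4 was the highest knockout library here, as it was for 8 of the 17 cluster members. The log2 fold change was -1.09 ± 0.20 (SE; limma adjusted p = 0.0296). Zfp677 was the gene with the fewest reads among the 18, with 72 in its lowest library. It had 1.29, 0.628 and 0.605 RPKM in the knockout libraries, against 3.45, 2.56 and 2.48 RPKM in the wild-type libraries. Zfp160, at the proximal end, had 1.40, 0.933 and 2.01 RPKM in the knockout libraries, against 3.39, 3.21 and 4.56 RPKM in the wild-type libraries. Neither gene's groups overlapped, and their log2 fold changes were -1.34 and -1.14.

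Finger-coding sequence of 5 cluster genes is shown to compare their likeness and their content of G and C. Each line below gives the coding strand of 1 finger with the linker before it, 84 bases, with the codons of the zinc-holding cysteines and histidines in capitals. The first 5 come from cluster genes that fell, and Zfp513 and Zfp771 are GC-rich members chosen among those not called. Sequences are from the GENCODE M21 annotation of GRCm38, at chr17:21463917-21464000 (+) for Zfp51, chr17:21560684-21560767 (+) for Zfp52, chr17:21587256-21587339 (+) for Zfp948, chr17:21928948-21929031 (-) for Zfp942, chr17:22339566-22339649 (-) for Zfp944, chr5:31200350-31200433 (-) for Zfp513 and chr7:127254087-127254170 (+) for Zfp771, each within a coding exon.
Zfp51: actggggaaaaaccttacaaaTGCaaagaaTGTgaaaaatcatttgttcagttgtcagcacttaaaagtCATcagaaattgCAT
Zfp52: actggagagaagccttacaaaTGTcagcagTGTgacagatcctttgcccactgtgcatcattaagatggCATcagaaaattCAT
Zfp948: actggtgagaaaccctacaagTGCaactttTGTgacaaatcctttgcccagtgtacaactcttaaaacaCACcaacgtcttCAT
Zfp942: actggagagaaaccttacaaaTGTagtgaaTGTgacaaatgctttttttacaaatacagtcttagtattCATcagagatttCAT
Zfp944: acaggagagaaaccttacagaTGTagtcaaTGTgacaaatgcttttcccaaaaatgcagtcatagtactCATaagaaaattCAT
Zfp513: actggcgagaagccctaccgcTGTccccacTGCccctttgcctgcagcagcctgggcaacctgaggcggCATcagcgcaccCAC
Zfp771: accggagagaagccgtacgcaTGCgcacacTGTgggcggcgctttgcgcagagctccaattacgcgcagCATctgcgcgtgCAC

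The GC content of these stretches was 33.3% in Zfp51, 42.9% in Zfp52, 41.7% in Zfp948, 31.0% in Zfp942 and 34.5% in Zfp944, and 67.9% in Zfp513 and 64.3% in Zfp771. Zfp942 and Zfp944 differed at 13 of the 84 bases (84.5% identical), whereas Zfp51 and Zfp52 were 70.2% identical. Each stretch is the first match in its protein to a pattern that fixes the linker and the spacing of the zinc-holding codons. All 7 therefore hold both, and the fingers compared are not matched by position. Zfp513 and Zfp771 were chosen for high GC content among members not called, so their lack of a call is no result. Their log2 fold changes were 0.18 and 0.23.

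Among the cluster genes that fell, 4 form 2 head-to-head pairs. Zfp942 and Zfp943 are transcribed away from each other from start sites 95 bases apart, and Zfp944 and Zfp758 from start sites 63 bases apart. Zfp942 had 1.74, 1.83 and 1.88 RPKM in the knockout libraries, against 5.10, 3.71 and 3.85 RPKM in the wild-type libraries. Zfp943 had 2.95, 2.44 and 2.76 RPKM in the knockout libraries, against 6.53, 5.25 and 4.63 RPKM in the wild-type libraries. WT 1 was the highest library for both, and no knockout library reached the lowest wild-type one. Zfp944 had 2.12, 2.12 and 2.60 RPKM in the knockout libraries, against 5.76, 4.45 and 3.88 RPKM in the wild-type libraries. Zfp758 had 1.47, 2.14 and 2.34 RPKM in the knockout libraries, against 5.81, 4.75 and 3.90 RPKM in the wild-type libraries. The log2 fold changes were -1.02 for Zfp942, -0.88 for Zfp943, -0.89 for Zfp944 and -1.10 for Zfp758, with limma adjusted p of 0.0234, 0.0377, 0.0482 and 0.0310.

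The pairs are copies of each other. Over ungapped alignments the RefSeq promoter windows (250 bases before to 50 after the start site, GRCm38.p6) of Zfp942 and Zfp944 were 99.6% identical over 275 bases, and those of Zfp943 and Zfp758 were 87.7% identical over 293 bases. Below, the first pair of lines gives the plus strand between the start sites of each pair, at chr17:21962465-21962558 and chr17:22361401-22361462. The RefSeq gene models of Zfp942, Zfp944 and Zfp758 also reach into these stretches, so other transcripts may start there. The line for Zfp820 gives the 60 bases at positions -150 to -91 from its start site, chr17:21845850-21845909 (-), and that for Zfp946 the 60 bases just before its start site, chr17:22424142-22424201 (+). Capitals mark CACGTG, a palindrome known as the E-box core bound by many basic helix-loop-helix factors.
Zfp942/Zfp943: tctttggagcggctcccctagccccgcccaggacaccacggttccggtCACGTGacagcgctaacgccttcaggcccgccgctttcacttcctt
Zfp944/Zfp758: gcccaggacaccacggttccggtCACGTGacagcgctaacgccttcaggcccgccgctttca
Zfp820: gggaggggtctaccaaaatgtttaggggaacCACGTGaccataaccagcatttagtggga
Zfp946: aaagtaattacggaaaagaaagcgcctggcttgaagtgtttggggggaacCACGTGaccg

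The shorter stretch between start sites occurs whole in the longer one. CACGTG was present in 6 of 17 RefSeq promoter windows of the cluster (35.3%; 15 genes matched), in 16 of 278 windows of all matched members (5.76%; 224 genes) and in 2349 of 32851 windows of all genes (7.15%). The 6 windows belong to Zfp820, Zfp942, Zfp943, Zfp944, Zfp758 and Zfp946, of which the first 5 fell. The windows within each pair overlap and share the same copy of the motif. Zfp946 had 0.951, 2.01 and 1.28 RPKM in the knockout libraries, against 2.56, 1.72 and 4.31 RPKM in the wild-type libraries, so its groups overlapped. Zfp820 had 1.22, 0.559 and 0.915 RPKM in the knockout libraries, against 2.499, 2.35 and 2.61 RPKM in the wild-type libraries. Of the 9 cluster genes that fell and have a window, 4 (Zfp160, Zfp677, Zfp52 and Zfp948) held no CACGTG there. The RefSeq gene models of Zfp52 and Zfp948 begin before their windows, at chr17:21533725 and chr17:21565816, and sequence before those starts was not searched. This motif was singled out after the counts of 11 motifs had been seen, and the letters were searched on both strands.

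Among the other motifs, CCAAT was in 51.0% of windows of KRAB members, 33.1% of windows of members without the box and 37.4% of all windows. CCGGAAG, the core bound by Ets factors, was in 23.9%, 15.7% and 8.86% of the same sets. ACTACAA, the core of the site that Zfp143 binds, was in 4.68% of member windows and 3.24% of all windows. The others searched were the TATA box core TATAAA, the GC box GGGCGG, the short NRF1 core TGCGCA and the longer sites of Zfp143, NRF1, YY1 and CREB, and none of the 11 was tested against the fold changes.

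Reads from near-identical copies could be placed on the wrong gene in such clusters. The share of a transcript's 50-base windows that also occur in another gene was at most 10.4% among the chromosome 17 cluster members (Zfp944, shared mostly with Zfp942), with a median of 0.899%. Only exact matches were counted, and gene models that overlap the member's own were left out, so reads may be shared more widely than this. Over all members it had a median of 0.042% and a highest value of 52.4% (Zfp59), and 28 members were above 10%. Among the 20 called genes 6 shared no window and 3 were above 10%, namely Zfp944, Zfp874a at 11.9% (with Zfp874b) and Zfp935 at 20.9% (with Gm36298). Values of these 3 are uncertain for that reason. The Zfp935 model also overlaps Zfp934, and the preparation is unstranded.

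A cluster on chromosome 13 showed the same direction with fewer calls. It spans chr13:67038594-67827000, holds 10 KRAB members with a median GC content of 39.5%, and all 10 log2 fold changes were negative, with a median of -0.81. Zfp708, Zfp712 and Zfp273 among them passed the filter through wild-type libraries only, so their negative sign was built into the choice. Zfp874a was its called member, with 2.18, 1.94 and 3.98 RPKM in the knockout libraries, against 6.34, 7.56 and 6.84 RPKM in the wild-type libraries. Its log2 fold change was -1.26 ± 0.23 (SE; limma adjusted p = 0.0272). Zfp708, which in mouse silences a family of retroelement repeats, had 0.260, 0.456 and 0.939 RPKM in the knockout libraries, against 1.66, 1.43 and 1.89 RPKM in the wild-type libraries. That its groups did not overlap was fixed by the filter. It was not called (log2 fold change -1.08, limma adjusted p = 0.0697), and neither was Zfp273 (-1.19, adjusted p = 0.0827).

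On chromosome 8, Zfp930 fell within a cluster of 6 members whose other 5 were not called. Zfp930 had 1.09, 0.591 and 1.42 RPKM in the knockout libraries, against 3.75, 3.58 and 3.75 RPKM in the wild-type libraries. The wild-type libraries were nearly equal, and the log2 fold change of -1.49 ± 0.23 (SE; limma adjusted p = 0.0121) was the second lowest of any member. Its neighbour Zfp869 had a log2 fold change of -0.06. The remaining 11 clusters had no call. They include 12 members at chr17:32765496-33631716, with a median log2 fold change of -0.41, and all the clusters of chromosome 7, which carries 70 members and 0 calls. The clusters at chr7:4915181-5053723 and chr7:127233061-127885996, with median GC contents of 61.2% and 53.3%, had median log2 fold changes of -0.08 and 0.08.

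The genes that fell outside the clusters were Zfp367, Zfp72, Zfp62, Zfp958, Zfp935 and Zfp280d. Zfp62, with 25 finger matches and no KRAB box, had 4.68, 3.04 and 4.70 RPKM in the knockout libraries, against 9.42, 8.12 and 8.06 RPKM in the wild-type libraries. Zfp280d, a relative of the fly insulator protein Suppressor of Hairy-wing, had 2.17, 2.18 and 3.35 RPKM in the knockout libraries, against 5.22, 5.41 and 5.13 RPKM in the wild-type libraries. Their log2 fold changes were -0.98 and -0.93, close to those of the cluster genes, with limma adjusted p of 0.0310 and 0.0393. Zfp72, Zfp958 and Zfp935 had log2 fold changes of -1.14, -1.13 and -1.08. Of the 18 genes that fell, 14 have a KRAB box, and Zfp367, Zfp72, Zfp62 and Zfp280d do not.

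A KRAB box was found in 148 of 266 members with a coding sequence, by a profile search of translated GENCODE sequences (E-value at most 0.001). KRAB members were more weakly expressed than the rest, with a median level of 2.76 RPKM against 6.26 RPKM, had more finger matches, with a median of 12 against 7, and were poorer in GC, with a median of 43.2% against 49.3%. Among the 148 KRAB members 14 fell (9.46%) and 1 rose, and the median log2 fold change was -0.27. Among the 118 members without the box 4 fell (3.39%) and 1 rose, and the median was 0.03. Over all genes tested, 1.27% fell and 0.671% rose. The difference in fold change between these classes was not tested, and their GC contents differed as well.

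GC content went with the fold change across the members. The Spearman correlation of log2 fold change with transcript GC content was 0.753 across the 268 members and 0.457 across 10939 tested genes with a transcript, values across genes that share libraries and are not independent. All 54 members with a GC content under 40% had a negative log2 fold change, with a median of -0.82, and 16 of them (29.6%) fell. They include Zfp708, Zfp712, Zfp273, Zfp955a and Zfp932, which passed the filter through wild-type libraries only. Among 549 other genes tested in the same GC range, 89.1% were negative, the median was -0.35, and 35 (6.38%) fell. KRAB members and members without the box in this range had medians of -0.89 (n = 39) and -0.71 (n = 15). From 40% to 45% GC, the median was -0.30 for 80 members and -0.15 for 2073 other genes. From 45% to 50% it was -0.02 for 54 members and 0.02 for 2760 other genes. At 50% or more it was 0.09 for 80 members and 0.11 for 5289 other genes, and 0 members fell there. The share of GC-poor transcripts was 20.1% among the members and 5.51% among all genes tested.

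**Figure D3:**
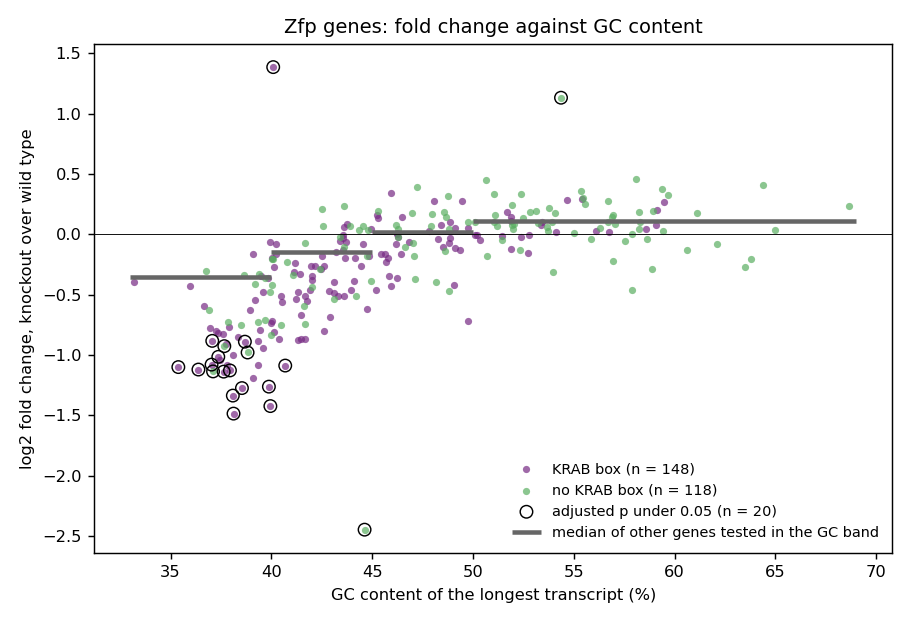
Log2 fold change, knockout over wild type, of each Zfp gene against the GC content of its longest transcript, with KRAB members in purple, members without the box in green, called genes ringed, and horizontal bars at the median of the other tested genes in each GC range. Below 40% GC the members have a median of -0.82 and 48 of 54 lie under the bar at -0.35, and from 45% on their medians of -0.02 and 0.09 are close to the bars at 0.02 and 0.11.

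GC content also separated the libraries as such. Across 10939 genes, the Spearman correlation of a library's deviation from the gene mean with GC content was 0.448 in KO 2, 0.554 in KO 3 and -0.31 in KO 4, and -0.272 in WT 1, -0.022 in WT 3 and -0.504 in WT 4. The median deviation of the 54 GC-poor members was -0.53, -0.52 and -0.11 log2 units in KO 2, KO 3 and KO 4, against 0.49, 0.33 and 0.41 in WT 1, WT 3 and WT 4. KO 4 thus had a negative correlation, like the wild-type libraries, and lay between the other knockout libraries and wild type for the GC-poor members. It was the highest knockout library for 43 of those 54 and for 12 of the 18 genes that fell. The KRAB members had median deviations of -0.24, -0.29 and 0.04 in the knockout libraries and 0.13, 0.18 and 0.19 in the wild-type libraries.

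**Figure D4:**
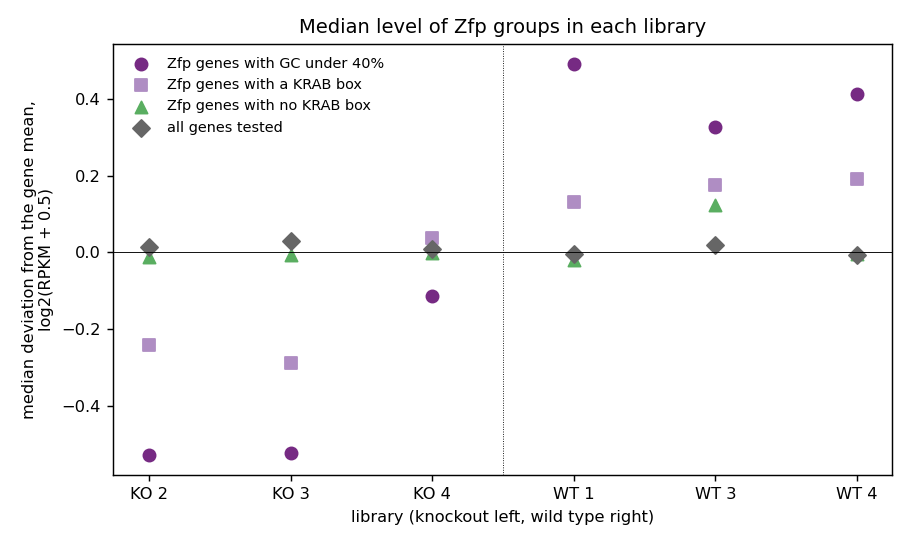
Median deviation from each gene's mean, in log2(RPKM + 0.5) units, of 4 gene groups in each library, knockout libraries left. GC-poor Zfp genes are at -0.53, -0.52 and -0.11 in the knockout libraries and between 0.33 and 0.49 in the wild-type libraries, while the medians of all genes tested stay near 0.

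With each library's trend on GC content and transcript length removed by a loess fit over all genes, 6 Zfp genes were lower and 2 higher, against 1.05% of 10939 genes called lower. The 6 were Zfp367, Zfp51, Zfp52, Zfp874a, Zfp930 and Zfp948, and the 2 were Zfp369 and Zfp395. All 18 genes kept a negative log2 fold change, and their median was -0.69 with the trend removed and -1.12 without. The median of the 17 cluster members of chromosome 17 was -0.53 with the trend removed. The GC-poor members had a median of -0.44 with the trend removed, and 45 of the 54 were negative, against a median of 0.05 for other genes of that range. The median over all 268 members was -0.05 and over all tested genes 0.05. The Spearman correlation with GC content across members was 0.390 with the trend removed. How far GC content accounts for the lower values was not tested beyond these numbers.

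The most expressed Zfp genes were unlike the KRAB members in kind, and none of the 10 highest was called. Zfp36 encodes tristetraprolin, which binds AU-rich elements through CCCH fingers and brings about decay of cytokine and growth factor mRNAs. It had 304, 299 and 285 RPKM in the knockout libraries, against 362, 236 and 212 RPKM in the wild-type libraries. The groups overlapped, since WT 1 was the highest library of all, and the log2 fold change was 0.17 ± 0.17 (SE; limma adjusted p = 0.637). Of 11 tested transcripts known to be bound by tristetraprolin, 0 were called (4 at an unadjusted p under 0.05), with a median log2 fold change of 0.12. Of 20 tested genes of its decay partners, 0 were called (4 at an unadjusted p under 0.05), with a median of -0.09. Of 19 immediate early genes, which like Zfp36 respond within minutes to stimulation, 0 were called (7 at an unadjusted p under 0.05), with a median of 0.20. Over all genes tested, 1.94% were called and 15.7% had a limma unadjusted p under 0.05.

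The next most expressed were Zfp207, which encodes the spindle assembly protein BuGZ, at 72.6 ± 10.01 RPKM in the knockout and 76.1 ± 4.60 RPKM in wild type (SD, n = 3 each), and Zfp637, at 66.8 RPKM in the knockout and 59.5 RPKM in wild type. Zfp706 followed with means of 48.1 RPKM in the knockout and 49.0 RPKM in wild type. Zfp259, now named Zpr1, Zfp771, Zfp414, Zfp521, Zfp358 and Zfp511 had means of 27.6 to 37.5 RPKM in the knockout and 26.4 to 34.8 RPKM in wild type. The largest uncalled rises were those of Zfp651, Zfp532 and Zfp428, with log2 fold changes of 0.46, 0.45 and 0.41. The largest uncalled falls were those of Zfp273, Zfp959 and Zfp708, with log2 fold changes of -1.19, -1.09 and -1.08. Zfp273 and Zfp708 passed the filter through wild-type libraries only.

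Members with known roles other than KRAB silencing were described by lists of their functions. Beside these lists, 1.94% of all genes tested were called and 15.7% had a limma unadjusted p under 0.05. Of 8 tested members that act on RNA or ribosomes, 0 were called (1 at an unadjusted p under 0.05), among them Zfp598, a sensor of collided ribosomes, at 9.43 RPKM in the knockout and 9.23 RPKM in wild type, and Zfp622, a factor of the large ribosomal subunit, at 16.1 RPKM in the knockout and 13.7 RPKM in wild type. Of 18 members that bind promoters or chromatin, 0 were called (4 at an unadjusted p under 0.05). They include Zfp143 at 11.3 RPKM in the knockout and 12.9 RPKM in wild type, and Zfp410, an activator of the chromatin remodeller gene Chd4, whose log2 fold change was 0.04. Of 7 lineage factors, 0 were called (0 at an unadjusted p under 0.05), among them Zfp521 and its relative Zfp423, a regulator of fat cell fate, at 9.51 RPKM in the knockout and 7.82 RPKM in wild type. Of 4 members linked to mitosis and the cell cycle, Zfp367 was called and 3 had an unadjusted p under 0.05, with a median log2 fold change of -0.65. Zfp322a and Zfp655 were the other two, with log2 fold changes of -0.75 and -0.54 and limma adjusted p of 0.176 and 0.188.

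Silencers with known targets were present at low levels. Zfp809, which represses murine leukaemia viruses, had 5.96, 5.48 and 7.71 RPKM in the knockout libraries, against 7.69, 9.13 and 9.95 RPKM in the wild-type libraries. KO 4 and WT 1 overlapped, and the gene was not called (log2 fold change -0.46, limma adjusted p = 0.24). Zfp57, a guardian of imprints, had means of 1.94 RPKM in the knockout and 2.60 RPKM in wild type, and Zfp445, which acts with it, 2.22 RPKM in the knockout and 3.36 RPKM in wild type. Of 5 tested silencers of retroelements and imprints, 0 were called (3 at an unadjusted p under 0.05), with a median log2 fold change of -0.51. Zfp708 and Zfp932 on this list passed the filter through wild-type libraries only. Of 22 tested genes of the KRAB repression machinery, 0 were called (3 at an unadjusted p under 0.05), with a median log2 fold change of -0.16. The shares over all genes tested were 1.94% called and 15.7% at a limma unadjusted p under 0.05. Trim28, the corepressor that KRAB boxes bind, had means of 41.4 ± 4.52 RPKM in the knockout and 39.9 ± 3.19 RPKM in wild type (SD, n = 3 each), and the lowest adjusted p was that of Mphosph8, a subunit of the HUSH silencing complex (log2 fold change -1.01, limma adjusted p = 0.0538).

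Other zinc finger families had too few genes tested for their share of calls to be compared with that of all genes. Of 27 tested Zbtb genes 1 fell, where 1.27% of all genes did, and their median log2 fold change was -0.02. None of 13 Zkscan and Zscan genes (median 0.03), 13 Klf genes (median -0.18) or 13 Zc3h genes (median -0.13) was called by limma, and 1, 2 and 3 of them had an unadjusted p under 0.05. Such an unadjusted p was found for 15.7% of all genes tested.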

How the data were processed

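RNA-seq was made from CD31+ CD45- spleen cells with a SMART-Seq v4 and Nextera XT preparation, per the labels' protocols. Tools listed in the submitters' processing notes are limma, edgeR, Subread and STAR 2.5.2b, with the build mm10. The authors deposited RPKM for 23337 genes in 6 libraries, and a table of log2 fold changes with p-values, per the file headers. The table's columns are numbered differently from the labelled replicates, so only their genotype was used. Members, lists and tests were chosen with earlier results of these data known.

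Reads were recovered from the steps of the RPKM values, which came out whole (tolerance 0.001) for all 17683 genes above 0 (100.0%). The filter kept 11035 genes that reached 1 RPKM in 3 or more libraries. The knockout was compared with wild type on log2(RPKM + 0.5) by limma 3.58.1 (R 4.3.3; intensity-trended variances, two-sided, threshold 0.05), and the pseudocount understates changes of low genes. The fit was tested on simulated data, where 72% of genes changed 2-fold were recovered (Stab1 knockout against wild type, 50 genes of that size). Of 50 genes changed 1.5-fold, 16% were recovered. The simulated noise was drawn separately for each gene and library. It held no shift with GC content, so it cannot show how the fit behaves under one.

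Named members are those called, the 10 of highest mean, those nearest the limit, those on role lists, the 3 largest uncalled changes each way and those with the most or fewest fingers. Others, such as the head-to-head partners and chromosome neighbours, were chosen after their values were seen. Positions came from RefSeq (GRCm38), which matched all 268 members, and GC content, lengths and coding sequences from the longest GENCODE M21 transcripts. KRAB boxes were found with pyhmmer 0.12.3, and 0 of 185 genes of families that lack the box matched. Figures used matplotlib 3.10.9 in Python 3.11.15. Alternatives were other pseudocounts, filters, scalings, variances and weights, voom on recovered reads, each library left out and, chosen after seeing the data, a block on the column number.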

Additional observations from a re-analysis of the deposited data

How the results depend on the processing

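With all libraries and the settings of the report, 2 members were higher and 18 lower, beside 74 higher and 140 lower among all genes. With no filter on low values these counts were 1 and 3 among members and 31 and 46 among all genes. With a filter of 5 RPKM, which tested 108 members, 1 was higher and 5 were lower. Quantile normalization left 9 lower members. Removal of the GC and length trends left 6 lower members and gave 115 higher and 115 lower genes in all. Estimated library quality weights called 23 higher and 99 lower members and 1772 higher and 1881 lower genes. Leaving out each library in turn gave 1 to 2 higher and 4 to 38 lower members, and 23 to 70 higher and 33 to 348 lower genes. Other pseudocounts, a mean filter, median centring, robust variances and voom gave 16 to 23 lower members. The median log2 fold change of the members stayed negative in every alternative but the 5 RPKM filter, where it was 0.03 over 108 members, and the cause was not tested. Stab1 kept its call throughout. The columns share only the numbers 3 and 4 between groups, and nothing in the labels says that a number pairs libraries. A replicate block by column number, chosen after seeing the data and with 1 residual degree of freedom, called 2 members higher and 14 lower, 13 of them among the 18, and 111 higher and 244 lower genes. Deviations from the group means correlated at 0.193 between the libraries numbered 3 and at 0.193 between those numbered 4. The smallest read count behind a member in any library was 27.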
